A study of Mus musculus with 16 samples.

Results

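The genes described here are the Wnt ligands, their receptors, the secreted proteins that bind or block them, and the TCF factors and Axin2 at the nuclear end of the pathway. They were chosen by symbol, with earlier results of these data known. Taken were every Wnt, Fzd (Frizzled), Sfrp (secreted frizzled-related protein), Dkk (Dickkopf) and Rspo (R-spondin) gene of the deposited table. Lrp5, Lrp6, Wif1, Frzb, Axin2, Tcf7, Tcf7l1 and Tcf7l2 were added. This gave 35 of the 16091 genes of the table: 9 ligands, 9 Frizzled receptors, 2 co-receptors, 6 inhibitors that bind the ligand or resemble its receptor, 2 Dickkopf inhibitors, 3 R-spondins and 4 genes for Axin2 and the TCF factors. A filter on low values kept 27 of them for testing. The remaining 8 lay below it (Wnt2b, Wnt6, Wnt8b, Fzd10, Frzb, Wif1, Rspo2 and Rspo3). Lef1 was also sought, but the deposited table held no gene of that symbol.

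The libraries, made from the poly-A fraction of inguinal fat, a white subcutaneous depot, came from C57BL6/J mice in 4 groups of 4. The untreated control-diet group and the untreated high-fat-diet group received no antibody. The control-diet antibody group and the high-fat-diet antibody group were given anti-PDGFcc (AF1447), an antibody against the platelet-derived growth factor ligand PDGF-CC, by intraperitoneal injection every 2 days for 2 weeks, each dose being 50 mg/kg and dissolved in PBS (100 µl). The treatment protocol, which stands with all 16 libraries, gives an age of 6 weeks for the mice that received the antibody, and no other label gives an age. The labels name no transgene or deletion in any group. The sources used here do not say whether the untreated mice had a control injection or for how long each diet was fed. The labels do not say that each library came from a separate animal, so the p-values measure the spread between these libraries, which may be technical. The title of the series names adipogenesis pathways as the outcome of interest under the antibody.

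Wnt proteins are secreted, lipid-modified ligands that bind a Frizzled receptor together with the co-receptor LRP5 or LRP6. Binding halts the destruction complex, of which AXIN2 is a part, so that β-catenin accumulates and acts with TCF factors on target genes, Axin2 itself being one of the most widely used of these. Other ligands, WNT5A above all, signal mainly without β-catenin. In fat, β-catenin signalling is known to hold precursor cells back from becoming adipocytes, WNT10B being the classic inhibitory ligand. SFRP5 is known as a secreted antagonist of WNT5A made by adipocytes, and PDGF-CC acts on PDGFRA, a receptor that marks adipocyte precursors.

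The results turn most on Axin2 and Sfrp5, the members whose calls were kept whichever library was left out, so the 250 bases before the annotated start of each are shown. They are taken from RefSeq for GRCm38.p6, run 5′ to 3′ on the strand of the gene, and carry every CG pair in capitals. The Axin2 window is chr11:108920099-108920348 on the plus strand and the Sfrp5 window is chr19:42202253-42202502 on the minus strand.
Axin2: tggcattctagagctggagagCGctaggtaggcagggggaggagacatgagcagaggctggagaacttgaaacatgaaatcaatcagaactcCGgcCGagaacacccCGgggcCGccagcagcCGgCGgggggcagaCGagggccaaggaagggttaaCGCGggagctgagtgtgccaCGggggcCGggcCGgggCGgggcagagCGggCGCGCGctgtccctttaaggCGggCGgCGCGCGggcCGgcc
Sfrp5: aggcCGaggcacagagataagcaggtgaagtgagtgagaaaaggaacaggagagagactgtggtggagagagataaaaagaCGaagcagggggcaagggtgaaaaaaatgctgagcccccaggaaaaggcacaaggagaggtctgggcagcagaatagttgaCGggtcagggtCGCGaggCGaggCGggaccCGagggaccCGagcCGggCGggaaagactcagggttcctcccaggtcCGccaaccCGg

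The Axin2 window held 24 CG pairs and was 69.2% G or C, against 13 CG pairs and 59.6% for Sfrp5. The median of 32851 mouse promoter windows of the same length was 6 CG pairs and 52.4%, and that of the 28 windows found for 23 members was 20.5 CG pairs and 66.0%. Forms of the site that TCF factors are known to bind were searched on both strands, CTTTGAA being the first form, CTTTGTT the second form, CTTTGAT the next form and CTTTGTA the last. Neither printed window held any of them, and neither held the shared core CTTTG, which 48.6% of all windows held. At least 1 of the 4 forms was found in 14.8% of all windows and in 14.3% of the member windows, 4 of 28, those of Fzd7, Tcf7l2, Wnt11 and Wnt5b. These counts describe letters within 250 bases and say nothing of binding.

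Adiponectin (Adipoq) lay between 78008 and 97146 normalized counts and perilipin 1 (Plin1) between 40527 and 63036 in all 16 libraries, so the defining markers of the labelled tissue were present. Libraries stood apart in other ways. The summed level of 8 skeletal muscle markers ran from 153 to 492295 normalized counts. Replicate 3 of the untreated control-diet group was the lowest of all 16 libraries for 12 of the 27 tested members (44.4%), against 19.7% of all tested genes, and was highest for 0 members, against 20.5% of all tested genes. Its 12 progenitor markers summed to 68955, the lowest of any library. Replicate 1 of the same group held the highest progenitor sum, 159134, and lay above the member's own mean for 24 of the 27 members. In bulk tissue, fewer cells of a type and less RNA per cell cannot be told apart. Earlier work on these data doubted this replicate 3 and replicate 2 of the untreated high-fat group, and the called genes are also given without both.

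**Figure D1:**
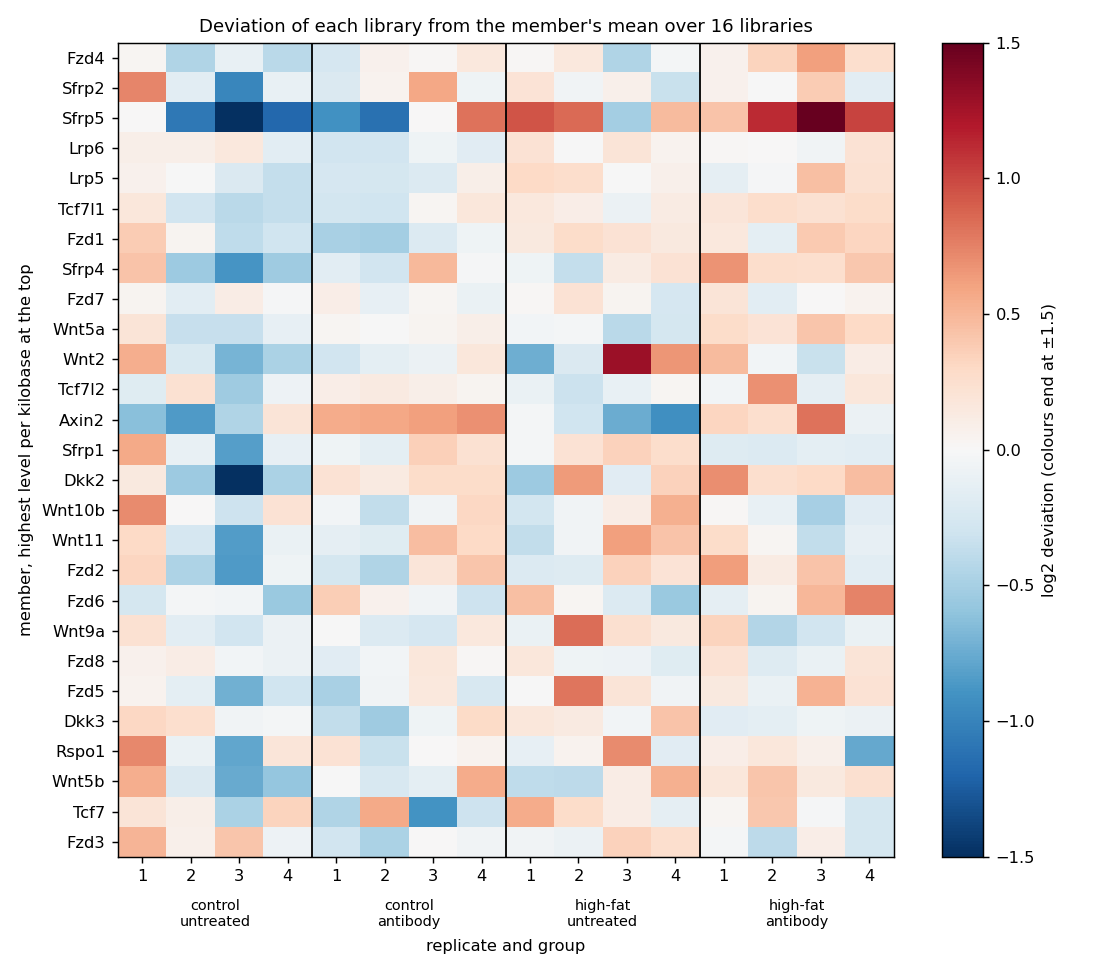
Deviation of each library (columns, by replicate and group) from the mean over 16 libraries, in log2 units, for the 27 tested members (rows). The column of untreated control-diet replicate 3 is mostly blue, with a median deviation of -0.45, and that of replicate 1 mostly red, with a median of 0.19. Axin2 is red in all 4 control-diet antibody libraries.

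Compared per kilobase of exon, which allows levels of different genes to be set side by side, Fzd4 led the members with a mean of 2344 normalized counts per kilobase over 16 libraries. It was followed by the inhibitors Sfrp2 at 1008 and Sfrp5 at 617, then the co-receptors Lrp6 at 323 and Lrp5 at 241. Tcf7l1 (233) and Fzd1 (231) lay within each other's range across libraries, as did Wnt5a (120), Wnt2 (106), Tcf7l2 (103) and Axin2 (102). Wnt5a and Wnt2 were the highest ligands, ahead of Wnt10b (72.5), Wnt11 (50.1), Wnt9a (41.0) and Wnt5b (18.1). Per kilobase, Sfrp2, Sfrp5 and Sfrp4 (183) all stood above the highest ligand. The 8 members below the filter lay between 2.11 and 6.89 normalized counts per kilobase.

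**Figure D2:**
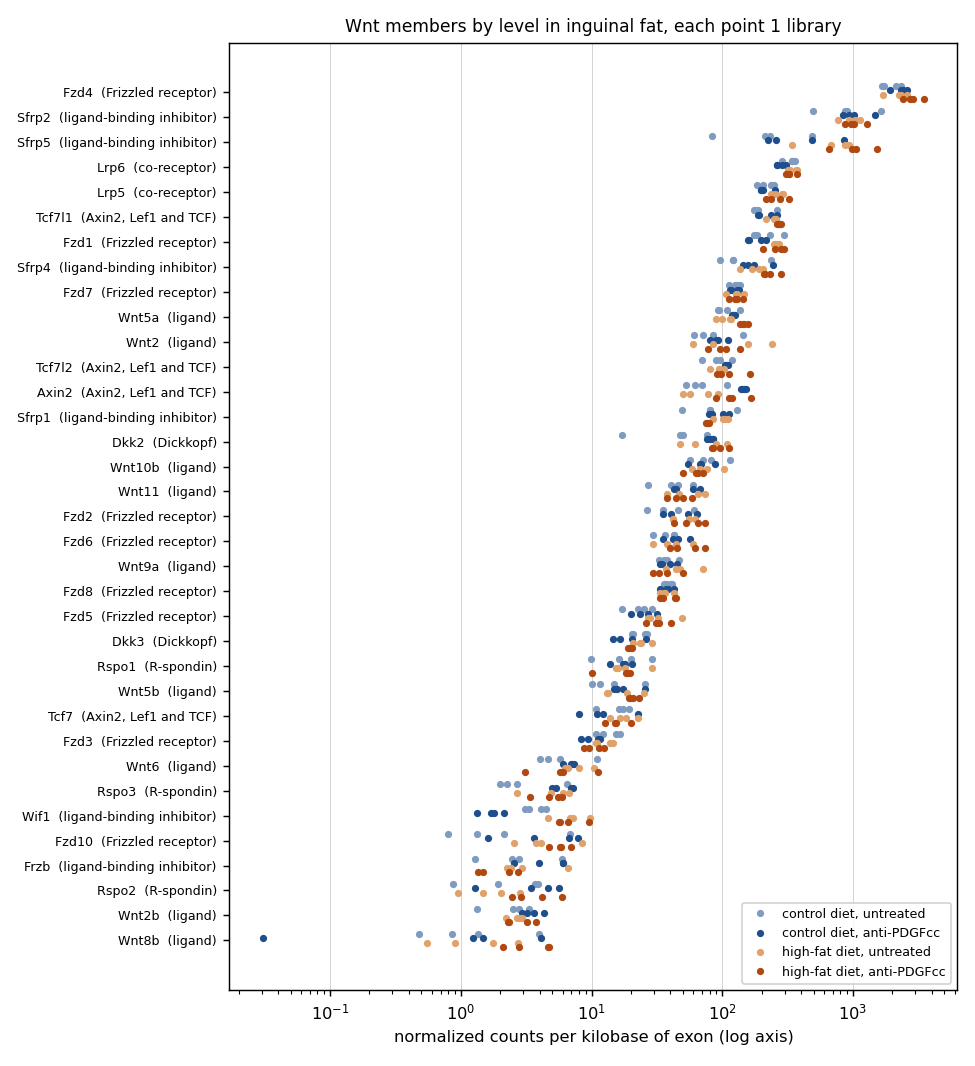
Normalized counts per kilobase of exon (log axis) of the 35 members, each point 1 library coloured by group. Fzd4, Sfrp2 and Sfrp5 lie at the top, and Sfrp5 spreads most widely among the high members. The 8 members under the filter lie at the bottom.

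The antibody comparison, averaged over both diets, was the one in which the β-catenin target Axin2 stood out. Of the 27 tested members, 2 rose with the antibody, 0 fell and 25 did not pass an adjusted p of 0.05 in limma (7.41% of members called, 1.54% of all tested genes called higher, 0.987% lower and 2.52% in either direction). The 2.52% ran from 1.01%, without untreated control-diet replicate 2, to 3.76%, without untreated high-fat replicate 1. The 2 were Axin2 and the ligand Wnt5a. At an unadjusted p under 0.05 there were 9 members (33.3%) against 16.8% of all tested genes. The changes of the members centred near 0, with a median of 0.04 on the log2 scale against -0.01 for all tested genes, and 15 members were higher and 12 lower.

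Axin2 (ENSMUSG00000000142, chr11:108920349-108950783, plus strand, GRCm38) encodes a scaffold of the destruction complex that feeds back on the pathway. In the untreated control-diet libraries it stood at 338, 289, 383 and 597 normalized counts, and in the control-diet antibody libraries at 770.0, 779, 800.5 and 838. All 4 treated libraries on the control diet lay above all 4 untreated ones, and the treated ones sat close together, with group means of 401.7 ± 136 and 796.9 ± 30.4 (SD, n = 4 each). In the untreated high-fat libraries it stood at 512, 426, 311 and 275, and in the high-fat antibody libraries at 653, 622, 920.1 and 492. There the groups touched, since treated replicate 4 lay just under untreated replicate 1. Group means on the high-fat diet were 380.9 ± 108 without and 671.7 ± 180 with antibody (SD, n = 4 each).

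Averaged over diets the Axin2 difference was 0.93 ± 0.16 (log2, SE), a 1.91-fold rise (limma, adjusted p = 0.0088). Within the control diet it was 1.04 ± 0.23 (limma, adjusted p = 0.0916), with an exact two-sided permutation p of 0.0286, the smallest that 4 against 4 libraries allow. Within the high-fat diet it was 0.82 ± 0.23 (limma, adjusted p = 0.149), with an exact two-sided permutation p of 0.0571. Neither within-diet value passed the threshold over all genes, and the difference between the diets was -0.22 ± 0.33 (limma interaction, adjusted p = 0.92). The diet itself left Axin2 without a call, at -0.06 without antibody (limma, adjusted p = 0.872) and -0.28 with it (limma, adjusted p = 0.541). The averaged antibody call was kept in all 16 fits that left out 1 library, with differences from 0.85 to 1.04 and adjusted p from 0.00355 to 0.0257. Without both doubted libraries it was 0.96 (limma, adjusted p = 0.0173).

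Wnt5a (ENSMUSG00000021994, chr14:28504750-28527448, plus strand) stood at 1060.4, 732, 730.4 and 851 normalized counts in untreated and at 948, 927, 958 and 985 in treated control-diet libraries. Untreated replicate 1 lay above every treated library there, so the groups overlapped. Under the high-fat diet it stood at 903, 906, 700.4 and 774 without and at 1123, 1073, 1233 and 1137 with antibody. All 4 treated high-fat libraries lay above the 4 untreated ones and above every control-diet library. Averaged over diets the difference was 0.34 ± 0.08 (log2, SE), a 1.26-fold rise (limma, adjusted p = 0.0351), and within the high-fat diet it was 0.48 ± 0.11 (limma, adjusted p = 0.0883). On the control diet it was 0.19 ± 0.11 (limma, adjusted p = 0.532), and the difference between the diets was 0.29 ± 0.16 (limma interaction, adjusted p = 0.87).

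The Wnt5a call rested on few of the fits. It passed in 5 of the 16 that left out 1 library, those without untreated control-diet replicate 1 (adjusted p = 0.00766), 3 (0.0498) or 4 (0.0484) and without untreated high-fat replicate 1 (0.0264) or 2 (0.031). Without any one of the other 11 libraries the limma adjusted p lay between 0.0537 and 0.0777. With each column scaled to the median total it was 0.054. Without both doubted libraries the Wnt5a difference was 0.33 (limma, adjusted p = 0.0422).

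**Figure D3:**
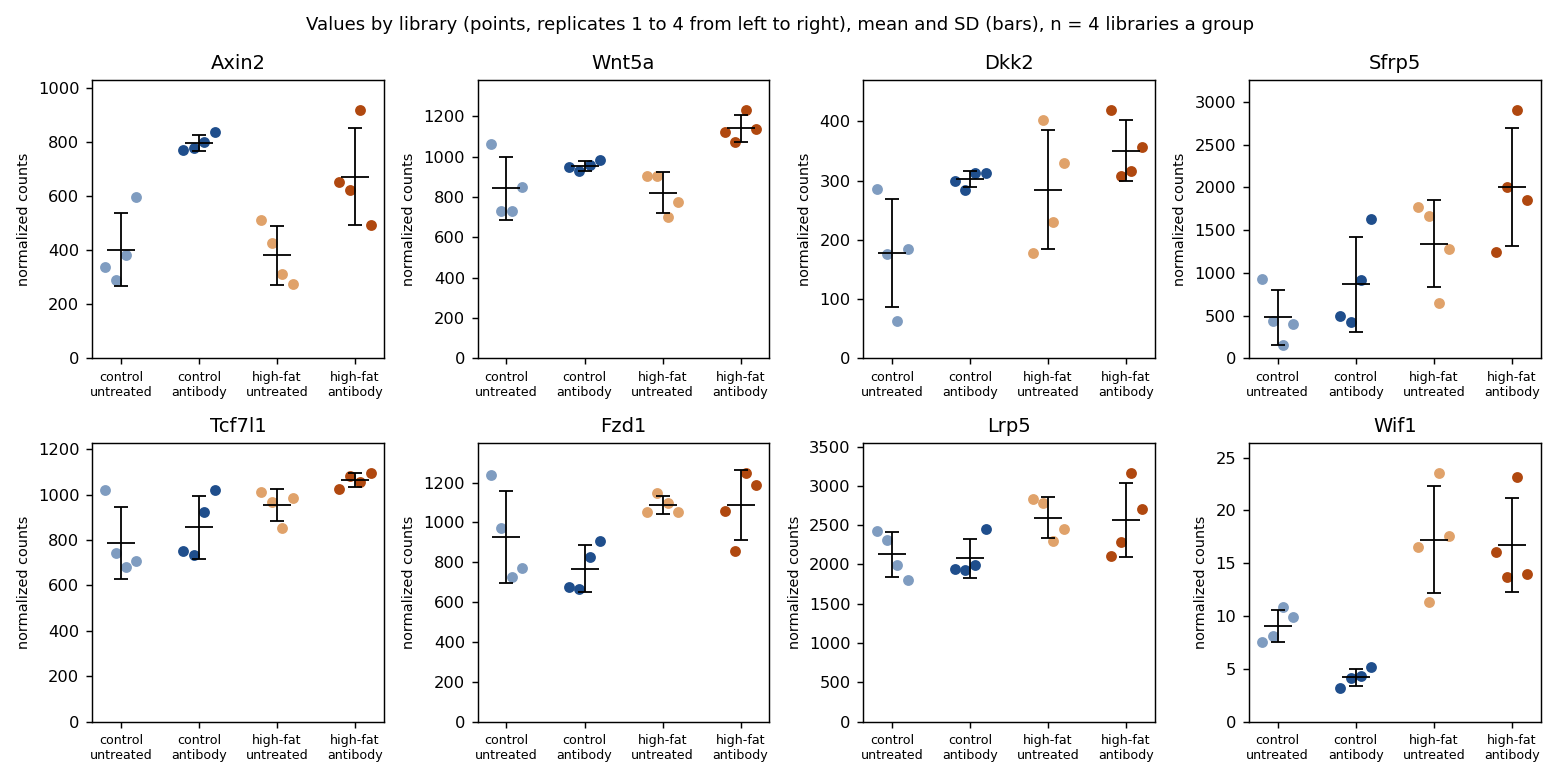
Normalized counts (linear axis from 0) of 8 members by group, with points for libraries and bars for the mean ± SD of 4 libraries. Axin2 is separated by antibody on the control diet and Wnt5a by antibody on the high-fat diet. Wif1, which lies below the filter on low values, is separated by diet, and the share of all genes separated by diet in this way was not counted.

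Among the other members the widest averaged antibody differences belonged to secreted inhibitors. Dkk2, a Dickkopf protein that blocks LRP5 and LRP6, stood at 285, 176, 63.8 and 185 in untreated and 299.7, 284, 312 and 313 normalized counts in treated control-diet libraries. With high-fat feeding it stood at 177, 401, 230.2 and 329 without and 419.7, 308, 317 and 357 with antibody. Untreated libraries were scattered and the groups overlapped on both diets, narrowly on the control diet. The averaged difference was 0.65 ± 0.24 (limma, adjusted p = 0.179). Dkk3, a divergent member of the same family, differed by -0.29 (limma, adjusted p = 0.229). On the high-fat diet its treated libraries all lay below its untreated ones, narrowly, with a highest value of 68.4 against a lowest of 69.5.

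Sfrp4, a secreted decoy for Wnt ligands, stood at 703, 573, 800.3 and 853 without and 1167, 881, 873 and 973 with antibody on the high-fat diet, where the groups did not overlap. On the control diet its groups overlapped (989, 504, 398 and 508 against 657, 599, 1028 and 725), and the averaged difference of 0.40 did not pass (limma, adjusted p = 0.231). Sfrp1, a related decoy, showed the opposite order on the high-fat diet, at 373, 444, 484 and 457 without and 333, 331, 344 and 341 with antibody. Its treated high-fat libraries lay below all untreated high-fat libraries, and they spanned the narrowest range of any Sfrp1 group. They also lay below all treated control-diet libraries, but only just, with a highest value of 343.9 against a lowest of 344.2. The interaction for Sfrp1, -0.59 ± 0.29, had the smallest unadjusted p of any member (limma, adjusted p = 0.845). Sfrp2, the most abundant inhibitor per kilobase, ran from 1068 to 3498 in the untreated control-diet libraries, from 1802 to 3141 in the treated ones, and from 1660.1 to 2733 on the high-fat diet. It was not called (0.16 ± 0.19, limma, adjusted p = 0.759).

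The receptors did not pass in the antibody comparison. Fzd4, a Frizzled also known as the receptor of norrin in vessels, stood at 15758, 11280.5, 14296 and 11656 normalized counts in untreated and 12986, 16117, 15657 and 17248 in treated control-diet libraries. In high-fat-fed mice it stood at 15657, 17252, 11328 and 15090.1 without and 16199, 19461, 23588 and 18453 with antibody. Treated libraries were mostly the higher ones on both diets, with overlap, and the averaged difference was 0.31 ± 0.11 (limma, adjusted p = 0.144). Fzd3 differed by -0.35 ± 0.12 (limma, adjusted p = 0.135) and Lrp6 by -0.15 ± 0.06 (limma, adjusted p = 0.207). Fzd1, Fzd2, Fzd5, Fzd6, Fzd7, Fzd8 and Lrp5 differed by -0.13 to 0.30.

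The inhibitory ligand Wnt10b stood at 393, 242, 194 and 279 in untreated and 234, 186, 232 and 298 in treated control-diet libraries. In the high-fat libraries it stood at 198, 231, 260.6 and 349 without and 244, 222, 170.4 and 214 with antibody. The groups overlapped on both diets, and the averaged difference was -0.23 ± 0.15 (limma, adjusted p = 0.487). Wnt2, Wnt5b, Wnt9a and Wnt11 differed by -0.20 to 0.28 without a call. The R-spondin Rspo1, which strengthens Wnt reception by removing receptor-degrading ligases, differed by -0.12 ± 0.22, and the TCF factors Tcf7, Tcf7l1 and Tcf7l2 by -0.23, 0.14 and 0.26.

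Within each diet 0 of the 27 members were called by limma for the antibody. On the control diet 4 members (14.8%) had an unadjusted p under 0.05, against 11.6% of all tested genes, and 0.0987% of all tested genes were called. On the high-fat diet 3 members (11.1%) did, against 13.5% of all tested genes, and 0.0775% of all tested genes were called. In order of p the leading members on the control diet were Axin2, Lrp6 (-0.24, limma, adjusted p = 0.29) and Dkk2 (0.95, limma, adjusted p = 0.301), and those on the high-fat diet were Wnt5a, Axin2 and Fzd4 (0.39, limma, adjusted p = 0.262). Groups did not overlap for 1 member on the control diet, Axin2 (higher in 3.43% and lower in 3.33% of all tested genes). On the high-fat diet they did not overlap for 3 members higher with antibody (Wnt5a, Sfrp4 and Tcf7l1, against 3.91% of all genes) and 2 lower (Sfrp1 and Dkk3, against 3.47%).

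Markers of other cells moved in part with the antibody. Of 8 mural markers 2 rose, Kcnj8 by 0.71 (limma, adjusted p = 0.0088) and Cspg4 by 0.64 (limma, adjusted p = 0.0171), and of 8 endothelial markers 1 rose, Egfl7 by 0.31 (limma, adjusted p = 0.0458). Called or not, 5 of the 8 mural and 6 of the 8 endothelial markers were higher with antibody, with a median of 0.05 in each list. Of all tested genes 1.54% were called higher. The summed mural level ran from 16793 to 19361 and from 18236 to 21421 without and with antibody on the control diet, and from 14965 to 23141 and from 16984 to 20990.5 on the high-fat diet. Their part in the Axin2 and Wnt5a differences was not tested. Averaged over diets, limma called 0 of 12 progenitor, 12 mature adipocyte, 8 macrophage and 8 skeletal muscle markers for the antibody. At an unadjusted p under 0.05 were 1, 4, 1 and 0 of them, against 16.8% of all tested genes. Called or not, 4, 10, 1 and 0 of them were higher with antibody, where 47.6% of all tested genes were. Of 8 beige adipocyte markers 8 were higher (median 0.38), with 0 called and 0 at an unadjusted p under 0.05. Of 8 Schwann cell and nerve markers 0 were higher (median -0.30), with 0 called and 2 at an unadjusted p under 0.05. The muscle markers moved in opposite directions by diet, which the average hides. On the control diet 8 of 8 were higher with antibody (median 4.15), 6 at an unadjusted p under 0.05. On the high-fat diet 0 of 8 were higher (median -5.59), 7 at an unadjusted p under 0.05. Limma called 0 of the 8 on either diet. No mural, endothelial, progenitor, adipocyte or muscle marker was at 0 in all libraries. The summed muscle level ran from 244 to 28999 without and from 27561 to 163552 with antibody on the control diet, and from 5433 to 492295 and from 153 to 8024 on the high-fat diet. With the mean of the muscle markers as a covariate the Axin2 difference was 0.87 (limma, adjusted p = 0.00908) and the Wnt5a difference 0.34 (limma, adjusted p = 0.0489).

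**Figure D4:**
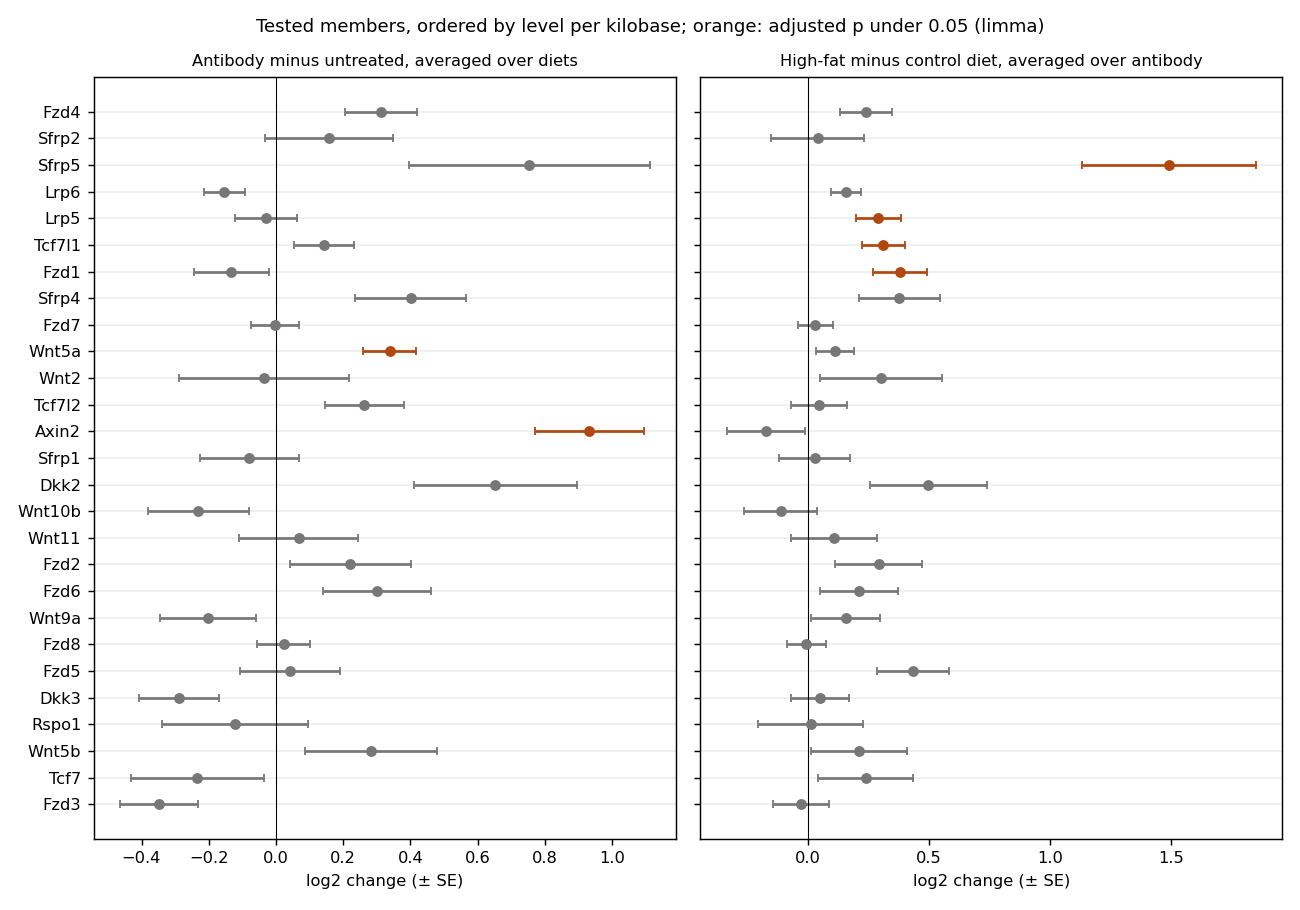
Log2 change ± SE of the 27 tested members for antibody minus untreated averaged over diets (left) and high-fat minus control diet averaged over antibody (right), ordered by level per kilobase. Orange marks an adjusted p under 0.05, reached by Axin2 and Wnt5a on the left and by Sfrp5, Tcf7l1, Fzd1 and Lrp5 on the right.

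Members called higher on the high-fat diet were a secreted inhibitor, a Frizzled, a co-receptor and a TCF factor. Only the call of the inhibitor was kept whichever library was left out. Averaged over the antibody, 4 of the 27 members rose, 0 fell and 23 did not pass (14.8% of members called, 8.28% of all tested genes called higher, 11.1% lower and 19.4% in either direction). The 19.4% ran from 11.2%, without untreated control-diet replicate 4, to 33.3%, without replicate 1 of that group. The 4 were Sfrp5, Tcf7l1, Fzd1 and Lrp5. At an unadjusted p under 0.05 there were 8 members (29.6%) against 36.0% of all tested genes, so the share of members that moved with diet was not above that of all genes. Of the 27 differences 23 were above 0, with a median of 0.16, where 54.1% of all genes lay above 0 with a median of 0.02.

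Sfrp5 (ENSMUSG00000018822, chr19:42197971-42202252, minus strand) had the largest of the 27 diet differences. On the control diet it stood at 926, 439.5, 159.5 and 406 normalized counts without and 491, 424, 923 and 1628 with antibody. Under the high-fat diet it stood at 1771, 1662, 644 and 1281 without and 1239, 2007, 2910.4 and 1856 with antibody. High-fat libraries were mostly the higher ones, but the groups overlapped in untreated and in treated mice, and the values within a group spread several-fold. Group means were 482.7 ± 321, 866.4 ± 553, 1339.6 ± 509 and 2003 ± 690.2 (SD, n = 4 each) in the order untreated control, treated control, untreated high-fat and treated high-fat.

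Averaged over the antibody the diet difference of Sfrp5 was 1.49 ± 0.36 (log2, SE), a 2.81-fold rise (limma, adjusted p = 0.0141). It was 1.63 ± 0.51 without antibody (limma, adjusted p = 0.0578) and 1.35 ± 0.51 with it (limma, adjusted p = 0.187), each with an exact two-sided permutation p of 0.0571. The averaged call was kept in all 16 fits that left out 1 library (1.27 to 1.69, adjusted p from 0.00222 to 0.0329) and without both doubted libraries (1.20, limma, adjusted p = 0.0412). The antibody difference of Sfrp5 averaged over diets, 0.75 ± 0.36, did not pass (limma, adjusted p = 0.306).

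Tcf7l1 (ENSMUSG00000055799, chr6:72626378-72789254, minus strand), the TCF factor known mainly as a repressor, stood at 1020.5, 741, 681 and 707 in untreated and 749.8, 733, 923 and 1020.1 in treated control-diet libraries. With high-fat feeding it stood at 1013, 967, 853 and 987 without and 1024, 1084, 1056 and 1095 with antibody. With antibody all high-fat libraries lay above all control-diet libraries, by a narrow margin over control-diet replicate 4, and without it the groups overlapped through untreated control-diet replicate 1. The averaged difference was 0.31 ± 0.09 (limma, adjusted p = 0.0262). Its exons share 179 bases with Gm15401 on the opposite strand, and since no source used here says that reads were counted by strand, its values are uncertain to that extent.

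Fzd1 (ENSMUSG00000044674, chr5:4753839-4758035, minus strand) stood at 1237, 973, 728 and 771 without and 675, 664, 826 and 908 with antibody on the control diet. In high-fat-fed mice it stood at 1051, 1148, 1100.1 and 1053 without and 1059, 856, 1249 and 1190.3 with antibody. The untreated high-fat libraries were closely grouped and exceeded all control-diet libraries but untreated replicate 1. The averaged difference was 0.38 ± 0.11 (limma, adjusted p = 0.0297).

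Lrp5 (ENSMUSG00000024913, chr19:3584828-3686564, minus strand) stood at 2424, 2307, 1993 and 1800 without and 1941, 1925, 1999.6 and 2451 with antibody on the control diet. In the high-fat libraries it stood at 2836, 2786, 2302 and 2449 without and 2112, 2280.2, 3165 and 2704 with antibody. The groups overlapped with and without antibody, and the averaged difference was 0.29 ± 0.09 (limma, adjusted p = 0.0393). The other co-receptor, Lrp6, stood at 4667, 4671, 4878 and 3923 without and 3606, 3598, 4200.0 and 3885 with antibody on the control diet. Under the high-fat diet it stood at 5092, 4350.0, 5002 and 4536 without and 4424, 4409.6, 4229 and 5109 with antibody. In treated mice every high-fat library exceeded every control-diet library for Lrp6, and the averaged difference was 0.16 ± 0.06 (limma, adjusted p = 0.0773).

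These 3 smaller diet calls depended on single libraries. Tcf7l1 passed in 11 of 16 fits and missed without untreated control-diet replicate 3 (limma, adjusted p = 0.05002) or 4 (0.0565), treated control-diet replicate 1 (0.0567) or 2 (0.0571) or untreated high-fat replicate 4 (0.0505). Fzd1 passed in 10 of 16 and missed without untreated control-diet replicate 3 (0.056) or 4 (0.0642), treated control-diet replicate 1 (0.0617) or 2 (0.063) or treated high-fat replicate 3 (0.0623) or 4 (0.0556). Lrp5 passed in 6 of 16, those without untreated control-diet replicate 1 (0.0171) or 2 (0.0438), treated control-diet replicate 4 (0.0266), untreated high-fat replicate 3 (0.0405) or treated high-fat replicate 1 (0.0239) or 2 (0.041). Without any one of the other 10 its adjusted p lay between 0.0574 and 0.0836. Without untreated control-diet replicate 1 the call count rose to 8 members, adding Dkk2, Fzd5, Sfrp4 and Wnt5a, where 33.3% of all tested genes were called. Without both doubted libraries 1 member, Sfrp5, was called. With columns scaled to the median total 7 were called, adding Fzd4, Fzd5 and Lrp6. In that fit 3838 of the 14189 tested genes were called, 2737 of them higher, and the median diet difference of all genes moved from 0.02 to 0.11.

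**Figure D5:**
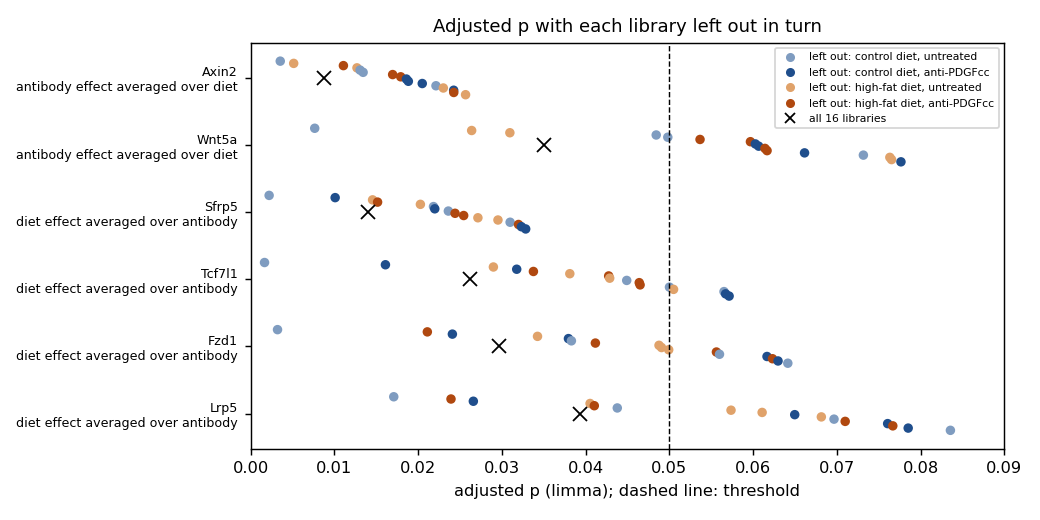
Limma adjusted p of the 6 called member differences, from all 16 libraries (cross) and from the fits that omit 1 library (points, coloured by the group of the omitted library). The dashed line is the threshold of 0.05. Every point of Axin2 and Sfrp5 lies to its left, while Wnt5a, Tcf7l1, Fzd1 and Lrp5 have points on both sides.

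The remaining receptors, ligands and inhibitors did not pass for diet. Fzd5 stood at 201, 175, 118 and 157 without and 138, 187, 217 and 163 with antibody on the control diet, and at 194, 339.8, 221 and 187 without and 215, 181, 279.5 and 226 with it on the high-fat diet. Its groups overlapped and its averaged difference was 0.43 ± 0.15 (limma, adjusted p = 0.0516). Sfrp4 differed by 0.38 (limma, adjusted p = 0.117), Fzd4 by 0.24 (limma, adjusted p = 0.122) and Dkk2 by 0.50 (limma, adjusted p = 0.151). Wnt10b (-0.11), Wnt5a (0.11), Sfrp1 (0.03), Sfrp2 (0.04), Dkk3 (0.05), Tcf7l2 (0.05) and Rspo1 (0.01) were among the small differences. Wnt2 held the widest single deviation of a tested ligand, at 544 in untreated high-fat replicate 3 against 134, 191 and 353 in the other libraries of that group.

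In untreated mice 5 of 27 members (18.5%) had an unadjusted p under 0.05 for diet, against 30.3% of all tested genes. Limma called 0 of the 27 there, where 8.15% of all tested genes were called. That share ranged from 0.0%, without replicate 4 of either untreated group, to 29.0%, without untreated control-diet replicate 1, and 0 genes were called with the replicate block, with only the compared groups or without both doubted libraries. In treated mice 0 members were called, where 0.00705% of all tested genes were called. There 6 members (22.2%) had an unadjusted p under 0.05, against 18.1% of all tested genes. After Sfrp5 the leading members in untreated mice were Fzd5 (0.51, limma, adjusted p = 0.117) and Tcf7l1 (0.29, limma, adjusted p = 0.129), and in treated mice Fzd1 (0.50, limma, adjusted p = 0.139), Lrp6 (0.25, limma, adjusted p = 0.164) and Sfrp5. In untreated mice the diet groups overlapped for all 27 members, where 4.54% of all genes were higher and 5.19% lower without overlap. In treated mice 3 members were higher without overlap (Lrp6, Tcf7l1 and Wnt5a, against 6.38% of all genes) and 1 lower (Sfrp1, against 9.08%). Without untreated control-diet replicate 1 the count in untreated mice went from 0 to 7 (Dkk2, Fzd1, Fzd5, Sfrp1, Sfrp4, Sfrp5 and Tcf7l1). For the interaction of diet and antibody limma called 0 members and 0.0% of all tested genes. At an unadjusted p under 0.05 there were 0 members, against 6.18% of all tested genes.

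Among the 8 members below the filter, only Wif1 was called for diet in a fit with no filter. WIF1 binds Wnt ligands outside the cell and blocks them. On the control diet it stood at 7.57, 8.08, 10.8 and 9.90 normalized counts without and 3.23, 4.11, 4.37 and 5.16 with antibody. With high-fat feeding it stood at 16.6, 11.3, 23.5 and 17.6 without and 16.1, 13.7, 23.2 and 14.0 with antibody. All 8 high-fat libraries exceeded all 8 control-diet libraries. The share of all genes separated in this way was not counted, so the separation does not set Wif1 apart from other genes. On the control diet all treated libraries lay below all untreated ones, as they did for 3.33% of all genes above the filter. In a fit with no filter the diet difference averaged over antibody was 1.29 ± 0.18 (limma, adjusted p = 0.00265, where 7.16% of 16091 genes were called higher). In treated mice it was 1.75 ± 0.26 (limma, adjusted p = 0.0463), and in untreated mice 0.82 ± 0.26 (limma, adjusted p = 0.0631). The 0.00621% of genes called higher in treated mice were 1 gene, Wif1 itself, so that share gives no background. The fits that left out libraries kept the filter, so the Wif1 differences were not checked in them.

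The antibody difference of Wif1 on the control diet was -0.95 ± 0.26 (limma, adjusted p = 0.177). These levels are under the value that stands for 1 CPM, and the log2(value + 1) scale shrinks the fold changes of genes so low. The other 7 spanned 0.106 to 30.4 normalized counts over all libraries. Wnt8b ran from 0.106 to 16.4, Fzd10 from 2.58 to 27.5, Frzb from 4.16 to 21.6, Rspo2 from 4.45 to 30.4, Wnt2b from 5.63 to 18.1, Rspo3 from 6.18 to 22.3 and Wnt6 from 6.81 to 24.7.

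Progenitor and other markers moved with diet beside these members. Of 12 progenitor markers 2 rose with the high-fat diet averaged over antibody, Icam1 by 0.46 and Dpt by 0.50, and the summed level ran from 68955 to 159134 in untreated and 85147 to 110405 in treated control-diet libraries, against 110314 to 150956 and 105304 to 123645 on the high-fat diet. Of the 8 mural markers Tagln and Acta2 rose, of the 8 endothelial markers Pecam1, of the 8 macrophage markers Cd68, and of the 12 adipocyte markers Plin4. Called or not, 11 progenitor, 6 mural, 8 endothelial, 8 macrophage and 6 adipocyte markers were higher on the high-fat diet. Of all tested genes 8.28% were called higher and 11.1% lower. Tagln shares 1349 exon bases, summed over Pcsk7 and Gm48529, with genes on the opposite strand. Of 8 beige adipocyte markers 3 fell, Cidea, Otop1 and Cox8b. Called or not, 1 of the 8 beige markers was higher on the high-fat diet, with a median of -1.66. At an unadjusted p under 0.05 were 7 of the 8, against 36.0% of all tested genes. The part of these cells in the member differences was not tested.

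The rest of the pathway was read through 93 other genes, 87 of them tested, sorted into lists for Wnt secretion, alternative receptors, receptor turnover, other extracellular modulators, planar cell polarity, the destruction complex, nuclear cofactors and common targets. For the antibody averaged over diets 3 rose, 1 fell and 83 did not pass (4.60%, against 2.52% of all tested genes), with a median of 0.05. Of these 4, 3 were on the list of nuclear cofactors. The coactivators Bcl9l and Bcl9, which tie β-catenin to the transcription machinery, rose by 0.52 ± 0.11 (limma, adjusted p = 0.0241) and 0.25 ± 0.06 (limma, adjusted p = 0.031). Apc, a core scaffold of the destruction complex, rose by 0.22 ± 0.05 (limma, adjusted p = 0.0447). Tle1, a corepressor that occupies TCF factors when β-catenin is absent, fell by 0.34 on the log2 scale (limma, adjusted p = 0.0204).

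Bcl9l stood at 3122, 2952, 4188 and 4782 normalized counts in untreated and 4535, 5278, 5150.2 and 6239 in treated control-diet libraries. In high-fat-fed mice it stood at 4949, 4342, 3592 and 3565 without and 5833, 5313, 6859 and 5582 with antibody. The groups were apart on the high-fat diet and overlapped on the control diet through untreated replicate 4. Bcl9l shares 662 exon bases with Gm47205 on the opposite strand. Tle1 averaged 932 and 744 without and with antibody on the control diet and 934 and 734 on the high-fat diet, with SDs of 64.6, 112, 64.7 and 55.0 (n = 4 each).

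Tle1 kept its call in 15 of the 16 fits without 1 library, missing it without untreated control-diet replicate 2 (limma, adjusted p = 0.0517). Bcl9l kept it in 12, missing it without untreated control-diet replicate 2 (0.0537), treated control-diet replicate 4 (0.0588) or untreated high-fat replicate 3 (0.0600) or 4 (0.0558). Bcl9 kept it in 10, with values from 0.0535 to 0.0736 in the other 6, which left out untreated control-diet replicate 2, treated control-diet replicate 1 or 4, untreated high-fat replicate 3 or 4 or treated high-fat replicate 2. Apc kept it in 2, those without untreated control-diet replicate 3 (0.0046) or untreated high-fat replicate 1 (0.0322). Of 13 tested genes on the list of common β-catenin targets, 0 were called by limma for the antibody, while Axin2, the target counted here among the members, was. At an unadjusted p under 0.05 there were 4 of the 13, against 16.8% of all tested genes. Called or not, 8 of the 13 were higher with antibody averaged over diets (median 0.07). On the control diet 8 were higher (median 0.12) and on the high-fat diet 6 (median -0.05), so the list held no rise shared by its genes. Without both doubted libraries all 4 called genes, Tle1, Bcl9l, Bcl9 and Apc, kept their calls (limma, adjusted p from 0.00952 to 0.0413). With the replicate block 1 of the 4 did.

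For diet averaged over antibody 9 of the 87 rose, 4 fell and 74 did not pass (14.9%, against 19.4% of all tested genes). Of the 13 common targets 4 rose. These were Runx2, a bone and stromal factor (0.68, limma, adjusted p = 0.00824), the secreted matricellular gene Ccn5 (0.72, limma, adjusted p = 0.0102), the cyclin Ccnd1 (0.37, limma, adjusted p = 0.0202) and the hyaluronan receptor Cd44 (0.52, limma, adjusted p = 0.0227). The matrix proteins Bgn (0.52, limma, adjusted p = 0.00686) and Cthrc1 (1.73, limma, adjusted p = 0.0131), the destruction complex partner Amer1 (0.45, limma, adjusted p = 0.00764), the Wnt5a receptor Ror1 (0.55, limma, adjusted p = 0.0261) and the polarity gene Vangl2 (0.38, limma, adjusted p = 0.0458) also rose. Runx2, Ccn5, Ccnd1, Cd44, Bgn, Cthrc1 and Amer1 kept their calls in all 16 fits without 1 library, Ror1 in 13 and Vangl2 in 5. Ccnd1 shares 1100 exon bases with LTO1 on the opposite strand, so its values are uncertain to that extent.

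The genes that fell with diet included the nuclear cofactors Tle5 (by 0.36, limma, adjusted p = 0.0101) and Ctbp1 (by 0.14, limma, adjusted p = 0.0327). The kinase gene Gsk3a (by 0.27, limma, adjusted p = 0.0282) and the coactivator gene Pygo1 (by 0.27, limma, adjusted p = 0.0383) also fell. Tle5, Ctbp1, Gsk3a and Pygo1 kept their calls in 16, 7, 11 and 5 of the 16 fits. Gsk3a shares 820 exon bases with 9130221H12Rik on the opposite strand, so its values are uncertain to that extent. Without both doubted libraries 9 of the 13 diet calls were kept, and Cd44 (limma, adjusted p = 0.0642), Ctbp1 (0.0552), Gsk3a (0.0818) and Vangl2 (0.132) missed. With the replicate block 6 of the 13 were kept. In untreated mice alone 7 of the 87 rose (Ccn5, Runx2, Cd44, Ccnd1, Cthrc1, Bgn and Tle3) and 1 fell (Tle5), or 9.20% against 8.15% of all tested genes. These 8 calls were kept in few of the 16 fits without 1 library, from 1 for Bgn to 7 for Ccn5. None of the 8 was kept without both doubted libraries (limma, adjusted p from 0.136 to 0.224), with the replicate block or with only the compared groups. In treated mice, for the antibody within either diet and for the interaction limma called 0 of the 87. At an unadjusted p under 0.05 there were 19 for diet in treated mice, where 18.1% of all tested genes were. For the antibody there were 9 on the control diet (11.6% of all tested genes) and 18 on the high-fat diet (13.5% of all tested genes). For the interaction there were 4 (6.18% of all tested genes).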

How the data were processed

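Poly-A RNA libraries were stranded, per the labels' protocols. The submitters' processing notes name the builds mm10 and GRCm38 and the tools limma 3.42.2, Subread 1.6.2, featureCounts, STAR 2.7.0e and fastp 0.20.1, without roles. Each deposited value is a linear signal that the authors name a normalized count. The sources used here do not give the normalization. The values are not whole, whole reads could not be recovered, and the depth before normalization is unknown, so no count model was run. Column totals were 24.02 to 28.15, in units of 1e6 normalized counts, with 0 unmapped columns and 0 identical pairs of columns.

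Values were converted to log2(value + 1), on which a fold change understates the change of low genes. Taking the median column total over 1e6, 24.49 was used as 1 CPM. Of the genes, 14189 exceeded this in 4 or more libraries and were tested, and 1902 were left out. With limma 3.58.1 in R 4.3.3, all 16 libraries entered a single fit of 4 group means with a variance trend (12 residual and 3.07 prior degrees of freedom). It was tested on simulated data. Tests were two-sided, and Benjamini-Hochberg adjustment ran over all genes tested, contrast by contrast. Exact permutation over assignments of 4 against 4 libraries checked single members. Coordinates and exon lengths come from GENCODE vM21 on GRCm38, where 16081 gene IDs were found, and promoter sequences from RefSeq for GRCm38.p6, where 23 members had an entry.

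The members, lists and tests were chosen with earlier results of these data known. To be named with values by library were the called members and the highest 2 per kilobase in each class. So were the 3 smallest p-values where fewer than 3 were called, and Axin2, Sfrp5, Wnt10b, Sfrp1 and Dkk2. Some of these are given only as differences, as ranges or for some groups, among them Tcf7l2, Rspo1, Dkk3, Fzd3, Wnt11, Sfrp2, Wnt2 and Sfrp1. Of each pathway list up to 3 called genes were to be named, and Cd44 was added after its value was seen. The alternatives were another pseudocount, no filter, quantile normalization, scaled totals, no variance trend, only the compared groups, a replicate block, each library left out, both doubted libraries left out, and a muscle marker covariate.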

Additional observations from a re-analysis of the deposited data

Results flagged for a closer look

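Of 140 combinations of member and group, 4 held a library farther from the other 3 than Dixon's critical value allows, with a gap to the nearest of them of 0.843 to 0.864 of the group's range, where chance gives about 1 in 20. The R-spondin Rspo1 stood at 19.5 normalized counts in high-fat antibody replicate 4, below the 35.7 to 38.2 of the rest of its group. Rspo3, which was under the filter on low values, stood at 20.1 in untreated control-diet replicate 1, above the 6.18 to 8.37 of the rest. The co-receptor Lrp5 stood at 2451 in control-diet antibody replicate 4, above the 1925 to 1999.6 of the rest, and this library is one whose omission kept the diet call of Lrp5. The inhibitor Frzb, also under the filter, stood at 21.6 in untreated high-fat replicate 4, above the 7.30 to 9.44 of the rest.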

How the results depend on the processing

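The pseudocount, quantile normalization, the muscle covariate and a fit without variance trend left the number of called members as it was in both averaged comparisons. For diet averaged over antibody, 7 members were called with scaled totals, where 3838 of the 14189 tested genes were called. With the replicate block 1 member was called for it, and without both doubted libraries 1. For the antibody averaged over diets 1 was called with scaled totals, where 316 of the 14189 tested genes were, and 1 with the block. For diet with antibody 1 was called with no filter (Wif1) and 1 when only the compared groups were fitted (Wnt5a). Leaving out each library gave counts of 0 to 7 for diet without antibody, 1 to 8 for diet averaged over antibody, 1 to 3 for the antibody averaged over diets, 0 to 1 for it on the control diet and 0 to 2 on the high-fat diet. The 1 was Axin2, without untreated control-diet replicate 4, and the 2 were Axin2 and Wnt5a, without untreated high-fat replicate 1. The cause was not tested.

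Since not every same-numbered pair correlated above 0.1, the replicate numbers were not taken to pair the libraries, though the 6 pairs of number 2 did (0.13 to 0.49). Over 24 same-numbered pairs the correlation of deviations ran from -0.54 to 0.49 with a median of 0.03, 10 were over 0.1, and 5 of 16 libraries correlated best with their own number. With the replicate block the limma adjusted p was 0.0634 for Wnt5a under the antibody, and 0.062, 0.0824 and 0.0529 for Fzd1, Lrp5 and Tcf7l1 under diet, while Axin2 (0.039) and Sfrp5 (0.0358) passed.

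The uncalled diet difference of Axin2 without antibody changed sign, to 0.037 with scaled totals, 0.12 with the muscle covariate, and 0.14 without untreated control-diet replicate 4, 0.017 without untreated high-fat replicate 3 and 0.077 without untreated high-fat replicate 4, over a leave-one-out range of -0.22 to 0.14. That of Wnt5a changed sign, to 0.072 with scaled totals, 0.086 without untreated control-diet replicate 1 and 0.043 without untreated high-fat replicate 3, over a leave-one-out range of -0.094 to 0.086. Scaled totals also moved the median diet difference of all genes without antibody to 0.12. Since the depth before normalization is unknown, no floor can be given for the 8 members under the filter.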
